A study of Mus musculus with 4 samples.

Results

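A set of 42 genes of the cell cycle was followed across the cell types of the mouse cerebellum, 20 of DNA replication (S phase) and 22 of G2 and mitosis (G2/M). They were chosen by name as genes known to peak in these phases, and all 42 of 42 symbols were found among the 32285 genes of the count matrices. The samples are whole cerebella at postnatal days 10 and 14 (P10 and P14), from mice labelled Eftud2 cKO and from wild-type (WT) mice, with 1 droplet-based single-cell library for P14 cKO, P14 WT, P10 cKO and P10 WT. Eftud2 encodes a GTPase of the spliceosome, cKO stands for conditional knockout, and the series title names Purkinje cells as the deficient cells. The labels give no Cre line, deleted exon, sex, number of pooled animals or replicate, so no difference at a single age had a replicate check, and every interval below is a 95% interval for counting error only.

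The libraries held 6146, 14868, 6425 and 13717 cells after filtering in P14 cKO, P14 WT, P10 cKO and P10 WT, with medians of 12213.5, 7699, 10880 and 8325 unique molecular identifiers (UMIs) per cell. Library pairs shared 7 to 76 cell barcodes. Eftud2 itself stood at 78.1 and 77.0 CPM (a gene's UMIs as a share of all UMIs of the cells, scaled as is usual) in P14 cKO and P14 WT granule cell progenitors and at 78.8 and 77.8 CPM in P10 cKO and P10 WT progenitors, so these cells do not check the genotype label. Both P10 libraries stood apart. The P10 cKO library had 0.537 CPM of Xist and 59.8 CPM of Ddx3y, against 890 to 1220 and 0.0139 to 2.46 CPM in the other libraries. P10 WT was written by an older Cell Ranger version than the rest, 5.0.0 against 7.0.1 and 7.1.0, and differed from P10 cKO by gene length: over the quartiles of genomic span, from short to long, the median log2 ratio of P10 cKO over P10 WT progenitors was -0.40, -0.15, 0.28 and 1.28. The same quartiles gave medians of -0.01 to 0.02 for P14 cKO over P14 WT.

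Cells copy their DNA in S phase and divide it in mitosis, and each phase is served by its own set of genes. S-phase genes are driven by E2F transcription factors. They encode the MCM helicase that opens the DNA, loaders such as Cdc6, the sliding clamp Pcna and the enzymes that make nucleotides. G2/M genes are driven later, by the B-Myb and FoxM1 factors acting with the MuvB complex on promoter elements called CHR, often beside CCAAT boxes bound by NF-Y, and they encode cyclin B, its kinase Cdk1 and the spindle and chromosome machinery. In the cerebellum of young mice the main dividing population is the granule cell progenitor of the external granule layer, which divides under sonic hedgehog from Purkinje cells, then leaves the cycle and becomes a newborn granule neuron.

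Matches to motifs of these factors were counted in the promoters of the members, and 4 promoters are printed because they hold motifs more frequent in their own list. RefSeq windows of 300 bases, from 250 bases before to 50 after the gene's start (GRCm38.p6), were matched for 37 of the 42 members. They were searched on both strands for 4 E2F 8-mers (TTTGGCGC, TTTCGCGC, TTTCCCGC and TTTGCCGC), for the CHR core TTTGAA and for CCAAT. The E2F letters can overlap each other, and capitals mark E2F letters in Mcm6 and Cdc6 and CHR or CCAAT letters in Top2a and Cdc20. Mcm6 is a subunit of the replicative helicase (chr1:128359656-128359955, minus strand) and holds 3 E2F matches, of which 2 overlap.
Mcm6: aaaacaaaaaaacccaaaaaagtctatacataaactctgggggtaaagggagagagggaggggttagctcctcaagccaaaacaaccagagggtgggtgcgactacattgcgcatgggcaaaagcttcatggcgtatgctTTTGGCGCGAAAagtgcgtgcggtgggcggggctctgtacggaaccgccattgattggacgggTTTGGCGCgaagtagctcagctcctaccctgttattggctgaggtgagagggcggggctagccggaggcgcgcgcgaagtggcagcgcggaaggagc
Cdc6 loads that helicase (chr11:98907901-98908200, plus strand) and holds 1 E2F match.
Cdc6: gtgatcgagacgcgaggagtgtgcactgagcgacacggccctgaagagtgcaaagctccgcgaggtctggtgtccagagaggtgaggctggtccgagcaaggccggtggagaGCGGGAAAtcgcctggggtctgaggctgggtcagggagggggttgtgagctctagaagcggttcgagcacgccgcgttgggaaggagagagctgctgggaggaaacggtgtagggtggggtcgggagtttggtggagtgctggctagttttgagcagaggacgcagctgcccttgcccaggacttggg
Top2a, the topoisomerase that untangles sister chromosomes (chr11:99024140-99024439, minus strand), holds 2 CHR and 6 CCAAT matches.
Top2a: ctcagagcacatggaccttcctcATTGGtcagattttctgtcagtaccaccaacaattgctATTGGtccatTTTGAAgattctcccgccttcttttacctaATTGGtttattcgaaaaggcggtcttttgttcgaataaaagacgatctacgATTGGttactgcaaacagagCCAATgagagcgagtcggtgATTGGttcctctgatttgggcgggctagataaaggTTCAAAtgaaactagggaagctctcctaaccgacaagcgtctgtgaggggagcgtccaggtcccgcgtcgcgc
Cdc20, which activates the anaphase-promoting complex (chr4:118437294-118437593, minus strand), holds 1 CHR and 2 CCAAT matches.
Cdc20: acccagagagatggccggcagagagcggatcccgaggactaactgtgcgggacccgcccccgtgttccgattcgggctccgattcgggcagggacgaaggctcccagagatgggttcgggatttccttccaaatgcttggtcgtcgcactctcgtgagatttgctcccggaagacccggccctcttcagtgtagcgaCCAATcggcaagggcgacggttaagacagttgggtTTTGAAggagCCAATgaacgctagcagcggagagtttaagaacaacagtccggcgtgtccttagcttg

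An E2F match was present in 8 of 18 S-phase members with a promoter (44.4%) and in 1 of 19 G2/M members (5.26%), Cdk1. Among all 27025 genes with a promoter window it was present in 2.60%. The CHR core ran the other way, with 3 of 18 S-phase members (16.7%), 13 of 19 G2/M members (68.4%) and 20.2% of all genes. CHR and CCAAT together were found in 3 S-phase members, in 12 G2/M members (63.2%) and in 7.97% of all genes. CCAAT, with or without CHR, was common to both lists, in 14 S-phase and 16 G2/M members, and in 41.1% of all genes. These are matches of letters, not sites of binding.

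All 42 genes were detected in the granule cell progenitors of every library. Progenitors were cells of the granule lineage with the highest ratio of progenitor markers (Atoh1, the transcription factor that defines them, and sonic hedgehog targets such as Gli1 and Ptch1) to markers of newborn granule neurons. No member gene is among these markers, but the limit of the ratio, a log2 value of -2, was set after Mki67 had been seen along it. With that limit, the share of progenitors with at least 2 UMIs of either list, after thinning each cell to 2000 UMIs, was 85.2% in P14 cKO, 83.6% in P14 WT, 83.7% in P10 cKO and 96.8% in P10 WT. With a limit of -3 it was 59.8% in P14 cKO, 60.1% in P14 WT, 65.8% in P10 cKO and 92.8% in P10 WT. They numbered 493 of 6146 cells in P14 cKO, 2027 of 14868 in P14 WT, 1344 of 6425 in P10 cKO and 2048 of 13717 in P10 WT, and all 9 of their markers had UMIs in each library. The S-phase members summed to 1929 and 2086 CPM in P14 cKO and P14 WT progenitors and to 1858 and 2371 CPM in P10 cKO and P10 WT. The G2/M members summed to 7928 and 7807 CPM in P14 cKO and P14 WT, and to 6836 and 11224 CPM in P10 cKO and P10 WT. Thus P10 WT stood highest for both sums. It stood apart from the other 3 libraries for the G2/M sum, while the S-phase sums spread from 1858 to 2371 CPM without such a gap.

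**Figure D1:**
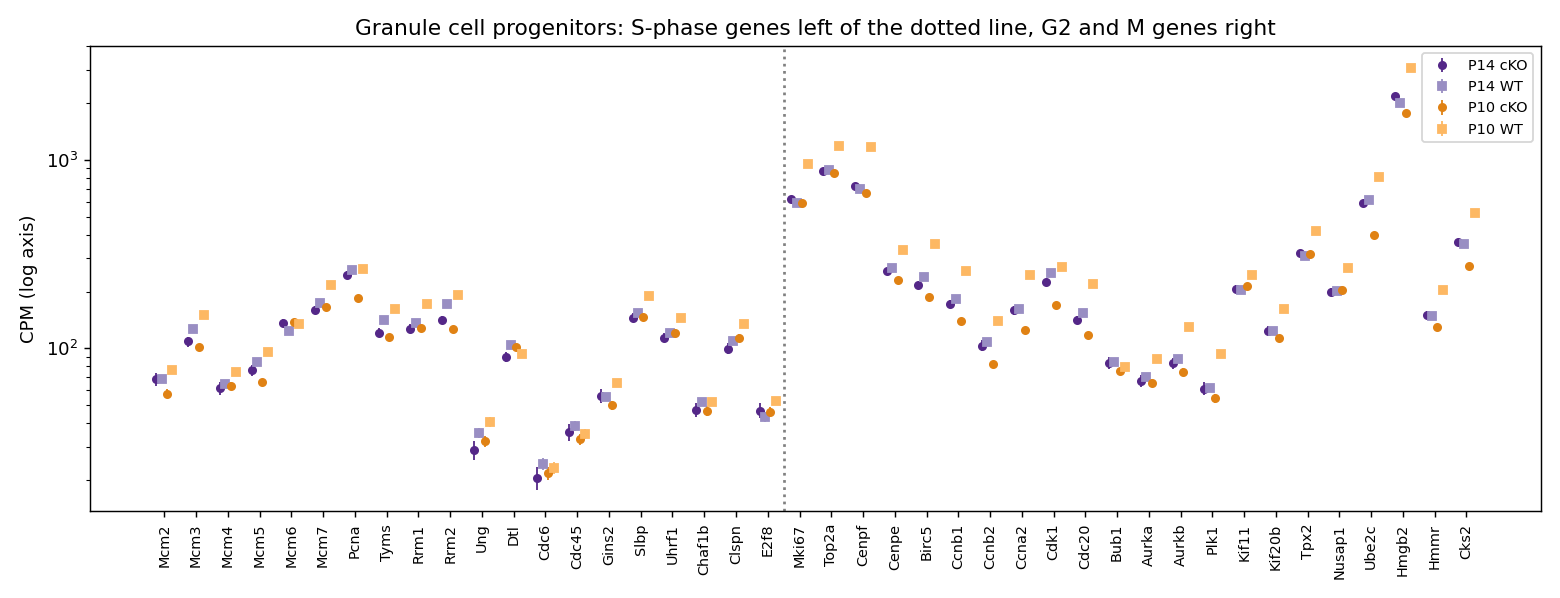
Level of each of the 42 genes in granule cell progenitors (CPM, log axis), 1 point per library with its 95% Poisson interval, S-phase genes left of the dotted line and G2/M genes right. For Ube2c the P14 cKO and P14 WT points sit at 589 and 615 CPM, and the P10 cKO and P10 WT points at 398 and 813 CPM.

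Among the helicase subunits, Mcm2 stood at 68.3 and 68.8 CPM in P14 cKO and P14 WT progenitors and at 57.5 and 76.5 CPM in P10 cKO and P10 WT. Mcm3 stood at 109 and 127 CPM at P14 and at 101 and 151 CPM at P10 in cKO and WT progenitors. Mcm6 was the flattest of these subunits, with 136 and 124 CPM in P14 cKO and P14 WT and 138 and 135 CPM in P10 cKO and P10 WT. The clamp Pcna, which had the most UMIs of its list, stood at 246 and 260 CPM in P14 cKO and P14 WT and at 185 and 264 CPM in P10 cKO and P10 WT, so P10 cKO was the low library. Rrm2, the regulated subunit of ribonucleotide reductase, stood at 141 and 172 CPM in P14 cKO and P14 WT and at 126 and 192 CPM in P10 cKO and P10 WT. For this gene, as for Mcm3, Pcna and further S-phase members, both cKO libraries were below both WT libraries. Mcm6 did not have that order. For Mcm2 the P14 libraries were level, with a log2 ratio of cKO over WT of -0.01 (-0.14 to 0.12).

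Mki67, the antigen widely used to mark dividing cells, stood at 619 and 587 CPM in P14 cKO and P14 WT progenitors and at 593 and 945 CPM in P10 cKO and P10 WT. Ccnb1, a cyclin B that activates Cdk1 at mitotic entry, stood at 172 and 182 CPM in P14 cKO and P14 WT and at 140 and 257 CPM in P10 cKO and P10 WT. In both, P10 WT was the high library and the other 3 were close. Ube2c, the ubiquitin-conjugating enzyme of the anaphase-promoting complex, differed most between the P10 libraries, with 398 CPM in cKO and 813 CPM in WT. Hmgb2, a chromatin protein and the member with most UMIs of its list, stood at 2191 and 2002 CPM in P14 cKO and P14 WT and at 1764 and 3085 CPM in P10 cKO and P10 WT.

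Individual progenitors separated by phase. Each cell was thinned to 2000 UMIs. A cell with at least 5 UMIs of the S-phase members was called S-high, and one with at least 5 UMIs of the 21 G2/M members other than Hmgb2 was called G2/M-high. Both limits were set after seeing that Hmgb2 was widely detected. Of P14 cKO and P14 WT progenitors, 32.9% and 35.3% were S-high, and of P10 cKO and P10 WT progenitors 31.5% and 44.1%. G2/M-high cells made up 46.5% (42.1% to 51.1%) of P14 cKO and 48.2% (46.0% to 50.4%) of P14 WT progenitors, whose intervals overlap, and 44.2% (41.6% to 46.9%) of P10 cKO and 66.9% (64.8% to 68.9%) of P10 WT progenitors. Astroglia, a class with little division, had 2.03% and 0.148% G2/M-high cells in P14 cKO and P14 WT, which were 3 cells and 1 cell. In P10 cKO and P10 WT they had 1.94% and 0.810%, which were 2 cells each. Median depths in astroglia were 12895 UMIs in P14 cKO, 10107 in P14 WT, 11596 in P10 cKO and 8042 in P10 WT. In progenitors they were 19677 in P14 cKO, 12568 in P14 WT, 15196.5 in P10 cKO and 12859.5 in P10 WT.

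To place each gene in the cycle without its own counts, it was left out of the sum that sorted the cells, and its level in S-high-only cells was divided by that in G2/M-high-only cells. Since the other members of its list still sorted the cells, this is a description with no test. Over the 4 libraries together, 18 of 20 S-phase members were higher in S-high-only cells, with a median log2 ratio of 1.52, and 0 of 22 G2/M members were, with a median of -3.41. The sharpest S-phase members were Ung and Cdc6. Ung, which removes uracil from newly made DNA, stood at 113 and 2.67 CPM in S-high-only and G2/M-high-only progenitors of P14 cKO, and at 125 and 4.25 CPM in P14 WT. Its log2 ratio was 3.58 to 5.34 over the libraries, and that of Cdc6 was 3.24 to 4.22. Chaf1b, a subunit of the chromatin assembly factor that follows the replication fork, and Mcm6 came next, at 2.18 to 2.88 and 2.06 to 2.71.

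The S-phase members Rrm1, Rrm2 and E2f8 did not follow the list. Rrm1 and Rrm2, the 2 subunits of ribonucleotide reductase, were close to level between the phases, at -0.23 to 0.18 and 0.05 to 0.15. Their highest level was in cells high for both lists, where Rrm2 stood at 281 and 340 CPM in P14 cKO and P14 WT. E2f8, an atypical E2F that represses the E2F program, was lower in S-high-only than in G2/M-high-only cells in 4 of 4 libraries, with log2 ratios of -1.75 to -0.67. It was low in progenitors high for neither list, at 3.80 and 1.97 CPM in P14 cKO and P14 WT.

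The G2/M members formed a gradient. Plk1, a kinase of mitotic entry and spindle assembly, Ube2c, the spindle protein Hmmr and Ccnb1 were the most sharply split, with log2 ratios of -6.19 to -4.53, -5.90 to -4.74, -5.51 to -4.59 and -5.34 to -4.42. Plk1 had 1.99 and 133 CPM in S-high-only and G2/M-high-only progenitors of P14 cKO and 1.66 and 129 CPM in those of P14 WT. Over the 4 libraries together the least split were Hmgb2 at -1.80 and Top2a at -1.93, with ranges of -1.92 to -1.67 and -2.19 to -1.73. Cdk1 at -2.42, Aurkb, a kinase of chromosome segregation, at -2.45 and Mki67 at -2.51 came next, and their ranges over the libraries overlapped. Top2a stood at 327 CPM in S-high-only, 1453 CPM in both-high and 1492 CPM in G2/M-high-only progenitors of P14 cKO, and at 356, 1386 and 1501 CPM in those of P14 WT. These broad genes thus had substantial RNA in cells sorted as S-high-only, whereas Plk1 and Ube2c had little. The sorted cells differ by gene, since cells that reached the G2/M limit only with its own UMIs no longer did. Over the libraries together, S-high-only cells numbered 1104 for Top2a and 1033 for Mki67, against 957 for Plk1. For Hmgb2, which was in no sum, they numbered 954. How far this moved the ratios and their order was not tested.

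**Figure D2:**
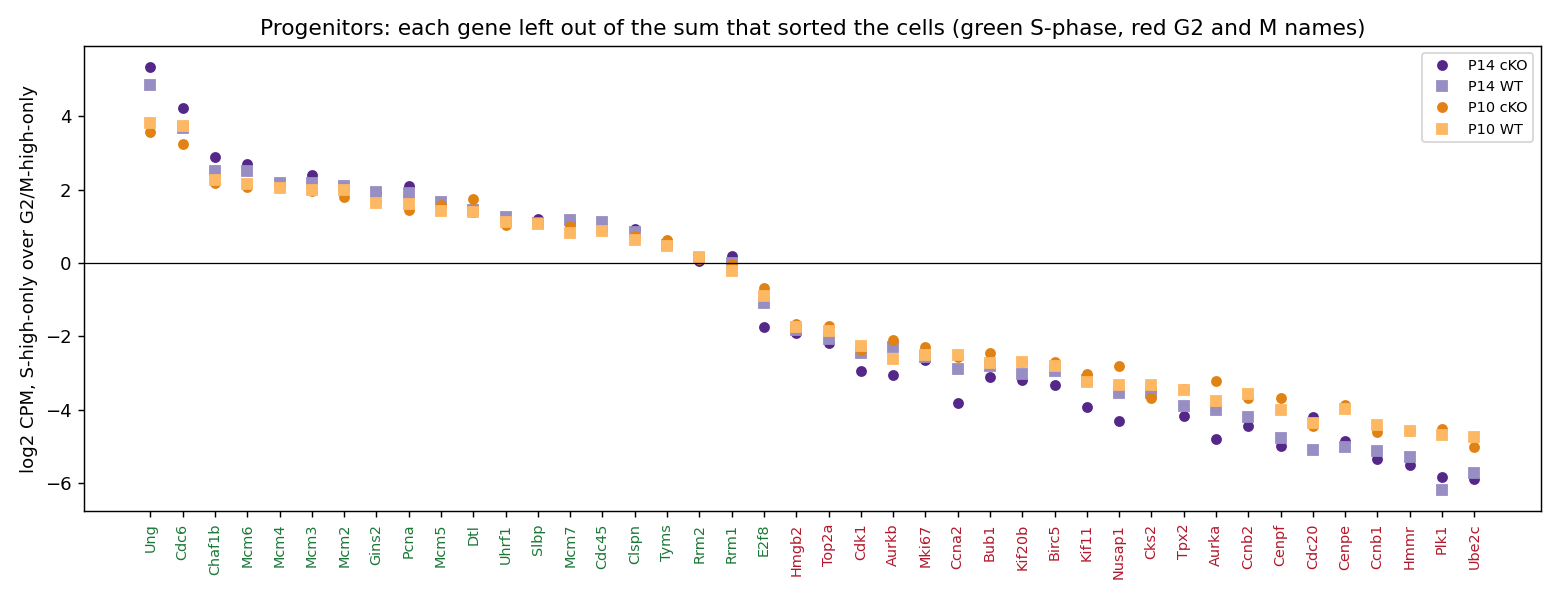
Log2 ratio of each gene's CPM in S-high-only over G2/M-high-only progenitors, with the gene left out of the sum that sorted the cells, 1 point per library. Green names are S-phase genes and red names G2/M genes. Ung and Cdc6 lie highest, E2f8 is the S-phase gene below 0 in 4 of 4 libraries, and Hmgb2 and Top2a are the G2/M genes nearest 0.

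Progenitors were the class with the highest level of nearly every member. Among classes with at least 20 cells they ranked top for 34 and 41 of 42 members in P14 cKO and P14 WT and for 42 and 42 in P10 cKO and P10 WT. The exceptions went to lymphoid and blood myeloid cells. Ccnb2, a cyclin B, stood at 143 CPM in lymphoid cells and 103 CPM in progenitors of P14 cKO, and at 115 and 108 CPM in those of P14 WT. The lymphoid class held 78 cells in P14 cKO and 141 in P14 WT. The progenitor limit was set after Mki67, a member, had been seen. The rank of progenitors over newborn granule neurons is therefore no independent result. For how many of all genes progenitors ranked top was not computed.

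The share of G2/M-high cells differed between classes. Oligodendrocyte precursors, the dividing glial cells of the brain, had 20.8% (14.1% to 29.0%) and 16.7% (12.5% to 21.7%) in P14 cKO and P14 WT, and 12.7% (7.29% to 20.1%) and 23.5% (19.5% to 27.9%) in P10 cKO and P10 WT. Lymphoid cells had 24.4% and 14.3% in P14 cKO and P14 WT and 6.67% and 10.7% in P10 cKO and P10 WT, on 30 to 149 cells. Blood myeloid cells had 27.6% (12.7% to 47.2%) and 11.9% (3.98% to 25.6%) in P14 cKO and P14 WT, and 0 of 20 cells in P10 cKO and 11.3% in P10 WT. Mural cells, which surround vessels, had 5.56% and 3.12% in P14 cKO and P14 WT, on 18 and 32 cells, and 11.6% in P10 WT. Microglia, the resident macrophages of the brain, had 4.29% and 5.32% in P14 cKO and P14 WT and 5.59% and 5.58% in P10 cKO and P10 WT. Endothelial cells had 0 of 68 cells in P14 cKO, where 3 cells would be a share of 4.41%. They had 0.455% in P14 WT, and 4.05% and 5.16% in P10 cKO and P10 WT. Oligodendrocytes, a class whose markers include Gpr17, Bcas1 and Enpp6 beside Mbp, had 0.784% and 2.37% in P14 cKO and P14 WT. In P10 cKO and P10 WT they had 0.813% and 3.87%. These shares are 2 and 6 cells in P14 cKO and P14 WT, and 1 and 11 in P10 cKO and P10 WT.

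Markers were compared between the G2/M-high cells of a class and its other cells, over all libraries. G2/M-high microglia had 12748 CPM of microglial markers, 44.8 CPM of progenitor markers and 0.640 CPM of Atoh1, against 15313, 35.0 and 1.12 CPM in other microglia. G2/M-high oligodendrocyte precursors had 9140 CPM of their own markers, 130 CPM of progenitor markers and 1.95 CPM of Atoh1, against 11837, 101 and 0.713 CPM in other precursors. G2/M-high lymphoid cells had 67.0 CPM of progenitor markers and 0 of Atoh1, against 57.4 and 0 CPM in other lymphoid cells. In further classes progenitor markers were higher in the G2/M-high cells. The 27 G2/M-high blood myeloid cells had 125 CPM of progenitor markers and 6.74 CPM of Atoh1, against 56.3 and 1.52 CPM in the others, and the 12 G2/M-high mural cells had 290 and 15.5 CPM, against 54.9 and 2.39 CPM. G2/M-high oligodendrocytes had 12.2 CPM of Atoh1 against 0.570 in the rest, G2/M-high endothelial cells 4.69 against 0.866, G2/M-high meningeal fibroblasts 18.5 against 1.46, and G2/M-high erythroid cells, 28.2% of that class in P10 WT, 37.2 against 15.3. The part of progenitor RNA in these classes was not tested.

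The granule lineage supplied most dividing cells in each library. Of all G2/M-high cells with a class, 339 of 421 (80.5%) in P14 cKO and 1379 of 1499 (92.0%) in P14 WT were granule lineage, and 817 of 856 (95.4%) in P10 cKO and 2374 of 2765 (85.9%) in P10 WT. Not all of these were progenitors. Progenitors gave 54.4% and 64.9% in P14 cKO and P14 WT and 69.4% and 48.9% in P10 cKO and P10 WT. The newborn granule neuron class gave 24.7% and 25.7% at P14 and 24.1% and 37.0% at P10, in cKO and WT. That class was named from its markers, not from having left the cycle. Oligodendrocyte precursors gave 6.18% and 3.00% in P14 cKO and P14 WT and 1.75% and 3.54% in P10 cKO and P10 WT. Over the whole granule lineage, where the dividing share also follows how many progenitors were captured, G2/M-high cells were 10.1% (9.09% to 11.2%) in P14 cKO and 14.1% (13.5% to 14.9%) in P14 WT, and 18.1% and 45.5% in P10 cKO and P10 WT.

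**Figure D3:**
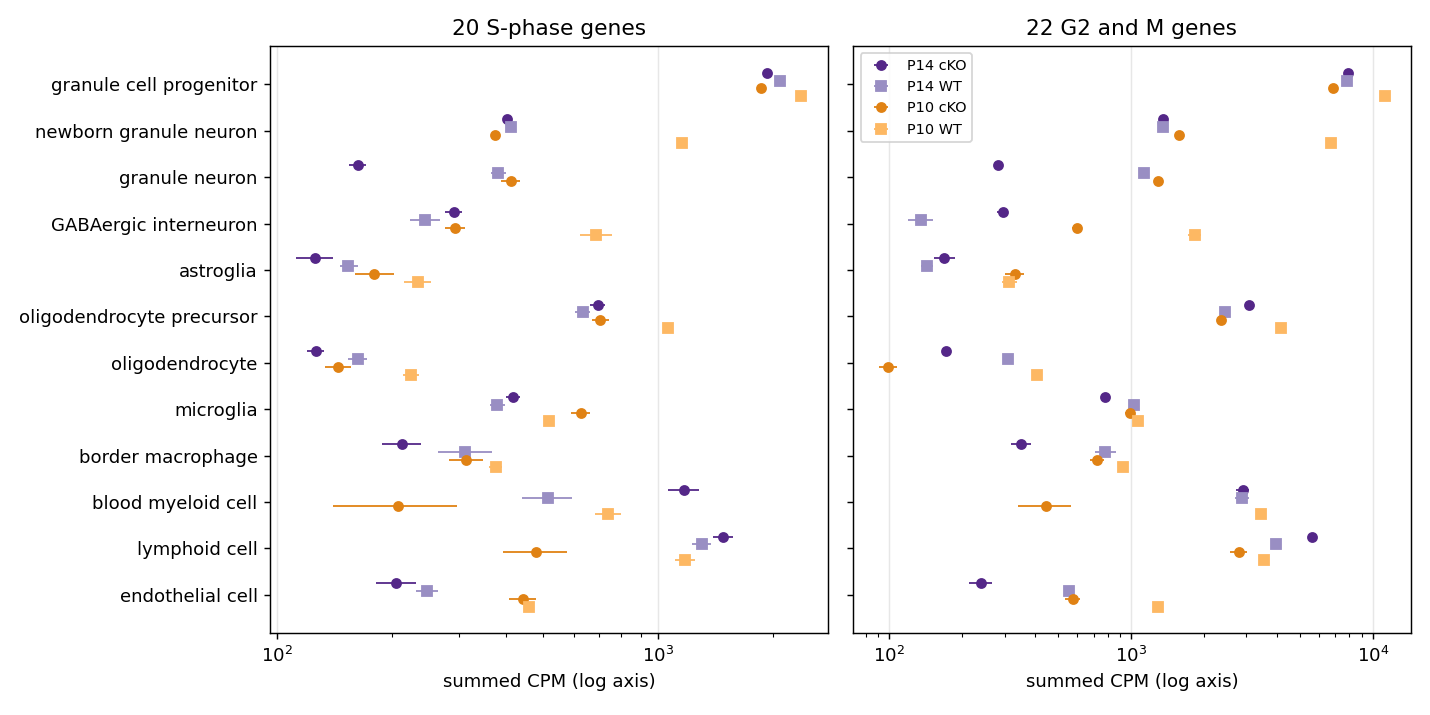
Summed CPM (log axes) of the S-phase genes (left) and of the G2/M genes (right) by cell class, 1 point per library with its 95% Poisson interval, for classes with at least 20 cells. Granule cell progenitors lie highest, with G2/M sums of 7928 and 7807 CPM in P14 cKO and P14 WT, and lymphoid cells stand at 5617 and 3987 CPM.

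Both lists were low in granule cells far from the progenitor state. Cells of the progenitor and newborn classes were ordered by the log2 ratio of their progenitor to newborn marker sums. At a ratio of 0 and over, G2/M-high cells were 55.4% in P14 cKO and 50.7% in P14 WT, at -1 to 0 they were 44.5% in P14 cKO and 51.8% in P14 WT, and at -2 to -1 they were 45.7% in P14 cKO and 45.1% in P14 WT. At -3 to -2 they were 14.5% in P14 cKO and 12.4% in P14 WT, and at -4 to -3 they were 1.72% and 2.30%. The progenitor limit of -2 was set after Mki67 had been seen along this ratio, so the drop just below it is no independent result. The S-high share was 46.2%, 37.9%, 25.7%, 6.89% and 1.29% over the same 5 bins in P14 cKO, and 43.8%, 41.1%, 29.0%, 6.87% and 0.980% in P14 WT. In these classes and bins the intervals of P14 cKO and P14 WT overlapped. That result depends on which cells were binned. The bins were first made over all granule lineage cells, mature granule neurons included, and were restricted after those values had been seen. Over all lineage cells, the G2/M-high share at -2 to -1 was 32.6% (27.6% to 37.8%, 344 cells) in P14 cKO and 42.5% (39.6% to 45.5%, 1100 cells) in P14 WT, and the S-high share there was 18.3% (14.4% to 22.8%) in P14 cKO and 27.4% (24.7% to 30.1%) in P14 WT. These intervals did not overlap, and P14 cKO was lower for both. At -1 to 0, again over all lineage cells, the G2/M-high share was 40.3% (33.5% to 47.3%) in P14 cKO and 50.8% (47.1% to 54.4%) in P14 WT. In P10 cKO progenitor and newborn cells, the G2/M-high share was 45.9% at 0 and over, 46.6% at -1 to 0, 41.2% at -2 to -1 and 17.9% at -3 to -2. In P10 WT it was 61.2%, 65.9%, 70.0% and 52.7% in the same bins, and 27.4% at -4 to -3. Newborn granule neurons of P10 WT held 32.0% G2/M-high cells, against 5.35%, 5.45% and 7.26% in P14 cKO, P14 WT and P10 cKO. Whether the marker ratio has the same meaning in P10 WT was not tested.

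Mature granule neurons differed between the P14 genotypes in both sums. Their G2/M members summed to 281 CPM in P14 cKO and 1136 CPM in P14 WT, a log2 ratio of -2.02. Without Hmgb2 the sums were 206 and 846 CPM, a log2 ratio of -2.04. Only 6 cells (0.649%) in P14 cKO and 21 (3.13%) in P14 WT were G2/M-high. The S-phase members summed to 163 and 381 CPM in P14 cKO and P14 WT, a log2 ratio of -1.23. P14 cKO also stood apart from P10 cKO, where the G2/M sum was 1287 CPM, by a log2 ratio of -2.20. Endothelial cells had 68.8 and 339 CPM without Hmgb2 in P14 cKO and P14 WT, a ratio of -2.29 on 93 and 1203 UMIs, and 240 and 555 CPM with it, a ratio of -1.21. Other classes differed in both directions. In G2/M sums with Hmgb2, GABAergic interneurons were higher in P14 cKO, at 294 against 135 CPM, a log2 ratio of 1.12 (0.94 to 1.32). Of them, 4 cells in P14 cKO and 0 in P14 WT were G2/M-high. Lymphoid cells, oligodendrocyte precursors and astroglia were also higher, at 0.49, 0.33 and 0.24. Oligodendrocytes, microglia, border macrophages and meningeal fibroblasts were lower, at -0.85, -0.39, -1.16 and -1.33. Median depth in granule neurons was 10602.5 UMIs in P14 cKO and 4487 UMIs in P14 WT. Over all libraries, the 44 G2/M-high granule neurons had 1150 CPM of progenitor markers and 27.7 CPM of Atoh1, against 343 and 2.11 CPM in the others. The definition of this class was tightened after such cells had been seen, and the first definition gave 370 and 1444 CPM in P14 cKO and P14 WT.

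**Figure D4:**
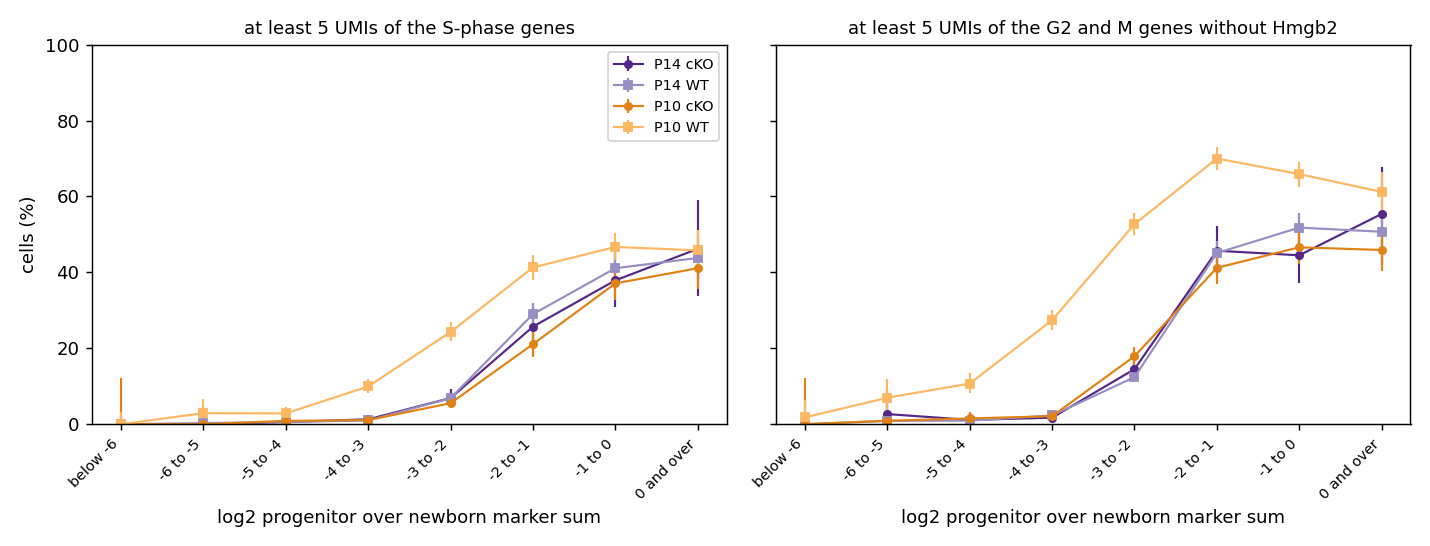
Share of cells (%) that were S-high (left) or G2/M-high (right) along the log2 ratio of progenitor to newborn marker sums, with 95% binomial intervals, for bins of at least 20 cells of the progenitor and newborn classes. In these 2 classes P14 cKO, P14 WT and P10 cKO run close together. P10 WT lies above them in the G2/M-high share, with 52.7% at -3 to -2 against 14.5%, 12.4% and 17.9%.

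Between P14 cKO and P14 WT progenitors the members differed little. No member was past 1.5-fold in either direction, where 7.36% of 14596 genes were higher and 3.48% were lower by at least 1.5-fold. The median log2 ratio of the 20 S-phase members was -0.11, with 17 lower and 3 higher, and that of the 22 G2/M members was -0.03, with 14 lower and 8 higher. The summed G2/M UMIs gave 0.02, of the other sign than their median, with Hmgb2 in the sum, and -0.02 without it. Over all genes tested the median was 0.00, with 49.6% lower. When every cell was given equal weight by thinning before the sum, the medians became -0.03 and 0.00, so the S-phase difference was smaller where deep cells weighed no more than others. With the granule stages called by highest marker score, the rule used first, the medians were -0.19 and -0.09. P14 cKO progenitors had a median of 19677 UMIs and P14 WT progenitors 12568.

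Rrm2 was lower in P14 cKO progenitors by a log2 ratio of -0.28 (-0.37 to -0.20), and Ung by -0.30 (-0.50 to -0.12). Cdc6 had a ratio of -0.25 (-0.49 to -0.03) and Mcm3 of -0.23 (-0.33 to -0.13). Counting intervals lay below 0 for 11 S-phase members and above 0 for 1, Mcm6, at 0.13 (0.04 to 0.22). Of the G2/M members, Cdk1 had the lowest ratio, -0.17 (-0.23 to -0.10), and intervals lay below 0 for 6 and above 0 for 3, Hmgb2 at 0.13, Mki67 at 0.08 and Cenpf, a kinetochore protein, at 0.05. With 1 library per genotype these intervals hold no variation between animals. They are narrow where a gene has many UMIs. The share of all genes with an interval off 0 was not computed, so these counts do not set the members apart from other genes.

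The wider pathway gave a like picture in progenitors at P14. Of 30 other replication genes, 26 were lower in P14 cKO, with a median of -0.13 and none past 1.5-fold, and Rpa2, a subunit of the single-strand DNA binding protein, had 56.0 and 76.5 CPM in P14 cKO and P14 WT. Lig1, the ligase that joins Okazaki fragments, had 108 and 139 CPM, and Fen1, the flap nuclease acting before it, had 62.2 and 79.2 CPM. Of 30 other mitosis genes, 16 were higher and 14 lower, with a median of 0.03. Among 18 genes of cycle entry, Ccnd1, the cyclin D1 that sonic hedgehog induces, had the largest difference, with 85.4 CPM in P14 cKO and 126 CPM in P14 WT, a log2 ratio of -0.56 (-0.67 to -0.45). Foxm1 had 40.3 and 35.4 CPM in P14 cKO and P14 WT. Among 10 genes of cycle exit, 5 were higher and 5 lower, and Cdkn1a, the kinase inhibitor p21, had 12.9 and 15.8 CPM.

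**Figure D5:**
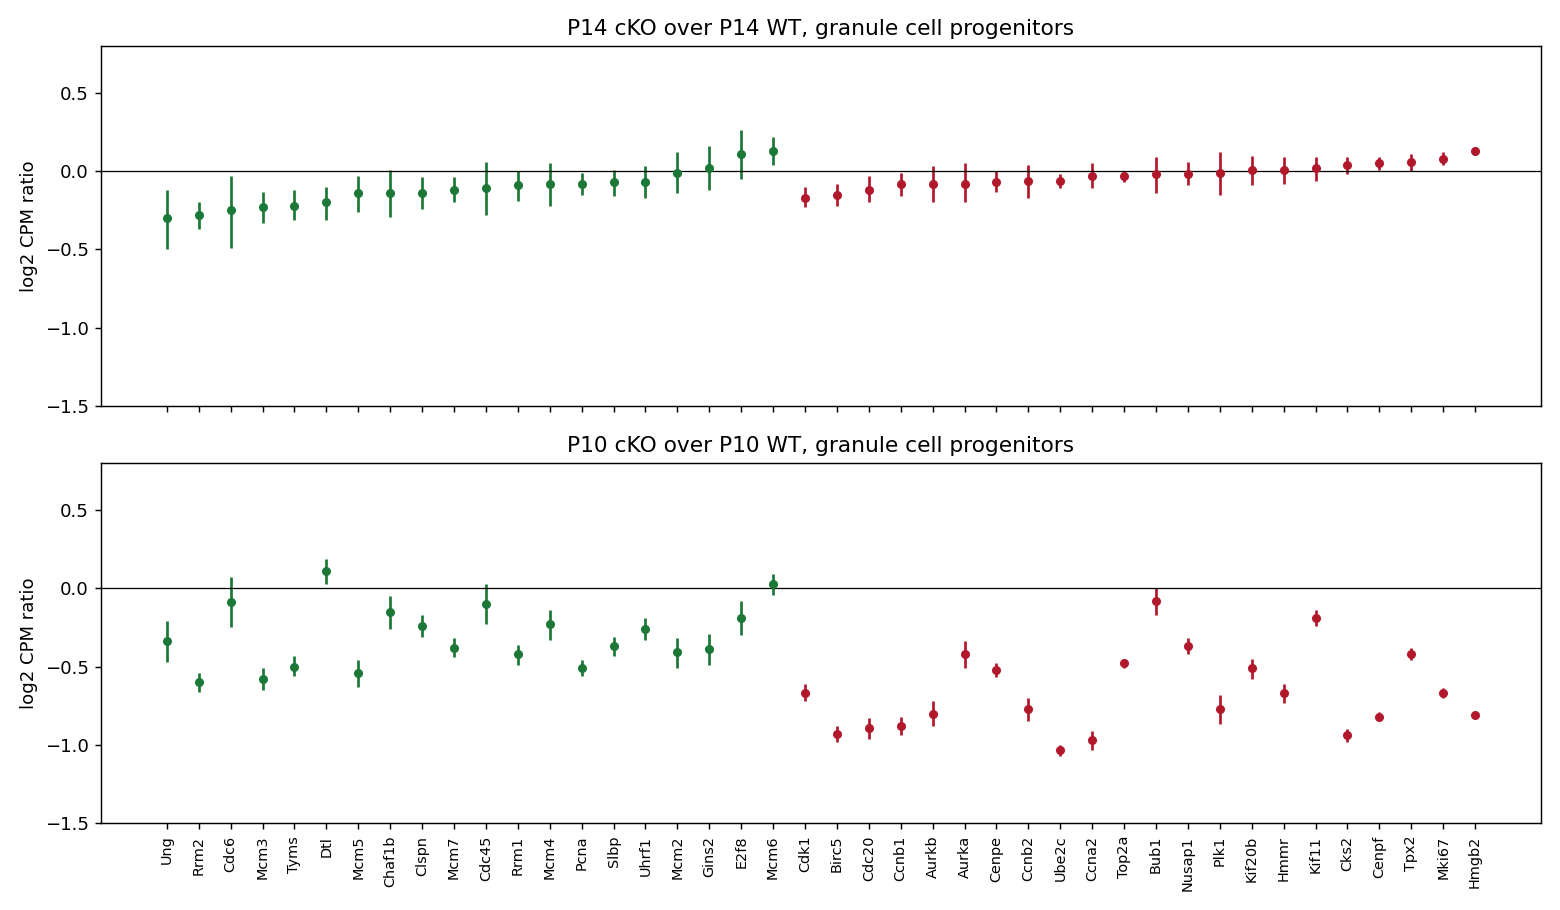
Log2 CPM ratio of cKO over WT progenitors for each gene at P14 (top) and P10 (bottom), with 95% counting intervals, S-phase genes in green and G2/M genes in red, ordered by the P14 ratio. At P14 the genes lie between -0.30 and 0.13, and at P10 the G2/M genes lie between -1.03 and -0.08.

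At P10 most members were lower in cKO than in WT progenitors. All 22 G2/M members had ratios below 0, with a median of -0.72, and 14 were lower by at least 1.5-fold, where 13.1% of 15333 genes were lower and 35.4% higher by that fold. Ube2c had the lowest ratio, at -1.03, and Bub1, a spindle checkpoint kinase, the nearest to 0, at -0.08. The S-phase members had a median of -0.36, with 18 of 20 lower and 1, Rrm2, past 1.5-fold. The median of all genes tested was 0.14. Because P10 WT differs from P10 cKO by gene span, members were set beside genes of like span: the 12 members in the shortest quartile had a median of -0.84 against -0.40 for all genes there, and the 15 in the second had -0.41 against -0.15. The 14 in the third had -0.40 against 0.28. Genotype, the version of the counting software and the difference in Xist and Ddx3y cannot be told apart at this age.

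Age was compared within each genotype, and these comparisons share libraries with those above. In cKO progenitors the 22 G2/M members were higher at P14 than at P10 in 20 cases, with a median log2 ratio of 0.16 and none past 1.5-fold, where 5.66% of 14692 genes were higher and 8.86% lower by that fold. Ube2c, at 589 CPM in P14 cKO and 398 CPM in P10 cKO, and Cks2, a Cdk1-binding subunit, at 366 and 272 CPM, had the largest ratios, 0.57 and 0.43. The S-phase members had a median of 0.01, with 10 higher and 10 lower. In WT progenitors, where P10 is the library that stands apart, 21 of 22 G2/M members were lower at P14, with a median of -0.45 and 5 past 1.5-fold, where 11.4% of 15216 genes were lower and 30.9% higher by that fold. The S-phase members there had a median of -0.20, with 16 of 20 lower and none past 1.5-fold.

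Over both ages, an edgeR quasi-likelihood fit of the 4 progenitor libraries, with age and genotype as terms and 1 residual degree of freedom, called 0 of 15566 genes for genotype and 0 for age, 0% in each direction. At an unadjusted p under 0.05 there were 83 genes for genotype and 115 for age, and 0 of the 42 members were among either. All 42 members had a fitted cKO over WT change below 0, the smallest edgeR adjusted p being 0.949. Of all genes tested, 47.9% were below 0. Because the fit joins both ages, it includes the P10 pair, which also differs in counting software. At P14 alone, 3 S-phase and 8 G2/M members were higher in cKO. Mki67, Hmgb2 and Cenpf, at 0.08, 0.13 and 0.05 there, were fitted at -0.39, -0.43 and -0.47. Mcm6 was fitted at -0.01 with TMM, while its CPM ratio was 0.13 at P14 and 0.03 at P10. For P14 over P10, 36 members were below 0 and 6 above, and 48.0% of all genes were below 0. The fit had little power: the common dispersion was 0.227, and with counts simulated at that dispersion it called 3 of 200 genes changed 4-fold for genotype and 23 of 200 for age. The counts of 0 therefore do not show that no gene differed. DESeq2 called 1 gene for genotype and 5 for age, with 656 and 472 at an unadjusted p under 0.05, and no member.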

How the data were processed

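The deposited matrices hold raw UMI counts for each gene in each cell of the cerebellar suspensions. Per the file headers, version 7.1.0 of Cell Ranger made the P14 matrices, 7.0.1 the P10 cKO matrix and 5.0.0 the P10 WT matrix. In contrast, version 3.0.2 stands in the submitters' processing notes, with Seurat 4.1.3 and mm10. Whether intronic reads were counted is not given in the sources used here. Features and barcodes files name genes and cells, and no other column of the deposited files was used.

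Cells with at least 500 genes and at most 20% mitochondrial UMIs were kept, and cells with a Scrublet score (Scanpy 1.11.5) of 0.22 or more were removed, 162, 527, 168 and 563 in P14 cKO, P14 WT, P10 cKO and P10 WT. The automatic threshold called 162, 0, 1 and 677, so 1 threshold was set after this was seen. Each cell took the class with the highest score over 166 markers, which needed a scaled score of 0.25 and 3 markers with a UMI, and was set aside as mixed where the second score was over 0.75 of the first (2.87% to 7.30% of cells). This ratio replaced 0.6 after that had left 47 to 300 interneurons per library, against 101 to 400 now. Granule lineage cells were progenitors at a log2 ratio of progenitor to newborn marker sums of at least -2, set after Mki67 had been seen along it; such ratios replaced the highest marker score after class sizes had been seen. From 369 to 1643 progenitor and newborn cells per library lay within 0.5 of that limit. Granule neurons needed a late to newborn ratio of at least 0, above the progenitor ratio, the last condition being added after dividing cells had been seen in that class.

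UMIs were summed per class and library, and log2 ratios had 0.5 UMI added and needed 20 UMIs. Poisson and Clopper-Pearson binomial intervals are exact, at 95%, and cover counting error only. Gene spans came from GENCODE vM21. The tests across genes used edgeR 4.0.16 with TMM, filterByExpr and Benjamini-Hochberg adjustment at 0.05, and DESeq2 1.42.0, in R 4.3.3, and edgeR was tested on simulated data of 12059 genes, 200 of them changed 4-fold. At a dispersion of 0.05, below the fitted 0.227, it recovered 197 for genotype and 198 for age, with 9 and 11 false calls, and at 0.227 it recovered 3 and 23, with 0 and 1. All 42 members could be named, and of each other list up to 4 genes with the largest P14 cKO over P14 WT ratio and at least 50 UMIs in both libraries. The members, lists and markers were chosen with earlier results of these data known. Python 3.11.15, NumPy 2.4.6, SciPy 1.17.1, pandas 2.3.3 and matplotlib 3.10.9 were used.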

Additional observations from a re-analysis of the deposited data

Results flagged for a closer look

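For 4 genes the cKO over WT log2 ratio in progenitors had counting intervals on opposite sides of 0 at the 2 ages. How many of all genes do so was not computed. The difference between ages was not tested, since each group has 1 library and the P10 libraries also differ in counting software and in Xist and Ddx3y. Mki67 had 0.08 at P14 and -0.67 at P10, Cenpf 0.05 and -0.82, and Hmgb2 0.13 and -0.81. Dtl, a substrate receptor of the ubiquitin ligase that acts on Pcna-bound proteins in S phase, ran the other way, at -0.20 at P14 and 0.11 at P10.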

How the results depend on the processing

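Libraries are in the order P14 cKO, P14 WT, P10 cKO, P10 WT, and medians in the order P14 S-phase, P14 G2/M, P10 S-phase, P10 G2/M. The share of progenitors with at least 2 UMIs of either list at 2000 UMIs was 85.2%, 83.6%, 83.7% and 96.8% (unthinned 97.8%, 95.2%, 98.1% and 99.6%). It became 74.8%, 74.6%, 74.6% and 91.0% at 1000 UMIs, 89.5%, 91.2%, 92.4% and 98.5% at 4000 UMIs, 92.9%, 93.1%, 93.7% and 98.9% with 1 UMI and 76.6%, 77.7%, 76.3% and 93.3% with 3. The ratio of S-phase to G2/M UMIs was 0.243, 0.267, 0.272 and 0.211, and 0.293, 0.315, 0.330 and 0.259 without Pcna and Hmgb2. With 1 more marker needed, the shares were 87.0%, 87.4%, 85.2% and 97.4%, the ratios 0.240, 0.261, 0.271 and 0.209 and the median log2 ratios of cKO over WT -0.12, -0.06, -0.33 and -0.74. These medians were -0.11, -0.02, -0.47 and -0.83 without mitochondrial and ribosomal protein genes, -0.03, 0.00, -0.39 and -0.87 after thinning each cell, and -0.10, -0.02, -0.36 and -0.73 with doublets kept.

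The alternatives that follow were chosen after seeing the data. With the progenitor limit at -3 the shares were 59.8%, 60.1%, 65.8% and 92.8%, the ratios 0.237, 0.261, 0.253 and 0.199 and the medians -0.13, -0.08, -0.54 and -0.92. At -1 they were 92.3%, 90.9%, 90.5% and 97.4%, 0.279, 0.299, 0.300 and 0.223 and -0.11, -0.08, -0.26 and -0.71. In granule lineage cells with an Atoh1 UMI they were 74.9%, 78.2%, 81.0% and 94.5%, 0.225, 0.231, 0.254 and 0.197 and -0.09, -0.17, -0.29 and -0.68. The shares without Hmgb2 were 81.1%, 80.8%, 80.0% and 95.2%. With stages by highest marker score they were 89.8%, 90.0%, 88.6% and 97.8%, 0.263, 0.289, 0.291 and 0.232 and -0.19, -0.09, -0.35 and -0.66. With mixed cells at 0.6 of the first score, the ratio became 0.264 in P14 WT. The bins over all granule lineage cells stand beside the restricted ones in the results above. With the first definition of granule neurons, 12 of 12 values stayed within counting error. No median changed sign under these settings, although the P14 G2/M median reached 0.00 after thinning. Of 166 recomputed values, 81 stayed within counting error or within 1.5 times of the count and 85 did not, and the cause was not tested.

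The edgeR counts of 0 became 2 for genotype and 4 for age with no filter on low counts, and 1 and 5 with DESeq2; other settings kept 0. Leaving out a library leaves no residual degrees of freedom. No paired analysis was possible because the labels give no replicate numbers.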
